A study of Mus with 6 samples.

Results

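The genes described here build the protein-folding and secretory machinery of the endoplasmic reticulum (ER), 42 genes in 6 roles: 11 chaperones and their helpers, 5 disulfide isomerases and oxidases, 8 genes of ER-associated degradation, 5 stress sensors and regulators, 9 genes of the translocon, and 4 genes of the export coat. All 42 were found by symbol among the 48882 genes of the deposited matrix, and all 42 were among the 14155 genes that reached a mean of 0.5 TPM over the libraries and were tested. TPM is a transcript's abundance corrected for its length and scaled to the total of its library. The values used here were returned from deposited log2 values with equal medians in all 6 libraries, and they sum to 983800 to 1018118 per library. RNA came from frozen liver of Fabp4 knockout (FABP4-/-) mice and their wild type littermates, with 3 libraries of each. Both groups were fed an ethanol-containing Lieber-Decarli liquid for 8 weeks and then received 1 ethanol binge, a model of alcoholic steatohepatitis, so every group carries the ethanol exposure and no liver without ethanol was analysed here. Age, sex, strain and the design of the knockout allele are not stated in the labels. Nor do the labels say that each library is a separate mouse, so that the tests measure the spread between these libraries.

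Hepatocytes secrete most plasma proteins, and each of these proteins enters the ER through the Sec61 channel, is folded there by chaperones and disulfide isomerases, and leaves in vesicles coated with COPII. Chains that fail to fold are pulled back to the cytosol and destroyed. When unfolded chains build up, the sensors encoded by Ern1 (IRE1), Eif2ak3 (PERK) and Atf6 start the unfolded protein response, in which spliced Xbp1 and cleaved Atf6 switch on chaperone and degradation genes. Splicing of Xbp1, cleavage of Atf6 and phosphorylation of the kinases leave no trace in gene-level TPM.

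Fabp4 itself had TPM values of 14.7, 8.15 and 19.96 in the 3 wild type libraries, and it had no value in any of the 3 knockout libraries, as their labels state. A gene without a value in a library was taken as 0 TPM. All 11 hepatocyte markers were abundant, with the liver transcription factor gene Hnf4a at 228 to 281 TPM. Wild type replicate 2 stood apart on the first principal component of all tested genes (38.1, the other 5 libraries between -22.3 and 2.497), and knockout replicate 1 did so on the second component (30.8, the others between -21.8 and 5.92). No count of reads can be read from TPM, so the depth behind each value is unknown.

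None of the 42 ER genes passed the test of knockout against wild type (limma, Benjamini-Hochberg over all genes tested), which called 0.00706% of all genes, Fabp4 alone. The smallest adjusted p among them was 0.522 (limma). In 31 of the 42 genes (73.8%) the log2 difference was above 0, against 57.4% of all genes tested, and their median difference was 0.14 against 0.04 on the log2(TPM + 1) scale. Higher differences numbered 29 after median scaling and 30 after quantile normalization. With 1 library left out they ranged from 24, without wild type replicate 3, to 35, without either wild type replicate 2 or knockout replicate 2. In 3 of the 42, Pdia3, Ero1lb and Herpud1, every knockout value lay above every wild type value, an order found in 8.94% of all genes. In 0 of the 42 did every knockout value lie below, against 4.38% of all genes. Unadjusted p was under 0.05 for 4 (Hsp90b1, Pdia3, Pdia4 and Ero1lb), all higher in the knockout, where 5.12% of all genes were higher at that level. Over all genes that level held 725 higher and 412 lower, and after median scaling 565 higher and 530 lower. With knockout replicate 2 left out, 14 ER genes reached that level, all higher, beside 4.58% of all genes higher. With wild type replicate 2 left out it was 7, all higher, beside 3.43%, and with knockout replicate 3 left out 2, both higher, beside 3.02%. The direction was mixed with wild type replicate 3 left out. There it was 4, of which only 2 were higher, beside 5.25% of all genes higher and 4.02% lower. The median difference of the 42 genes was 0.24 without wild type replicate 2, 0.22 without knockout replicate 2, 0.08 without either wild type replicate 3 or knockout replicate 1, and 0.06 without knockout replicate 3.

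**Figure D1:**
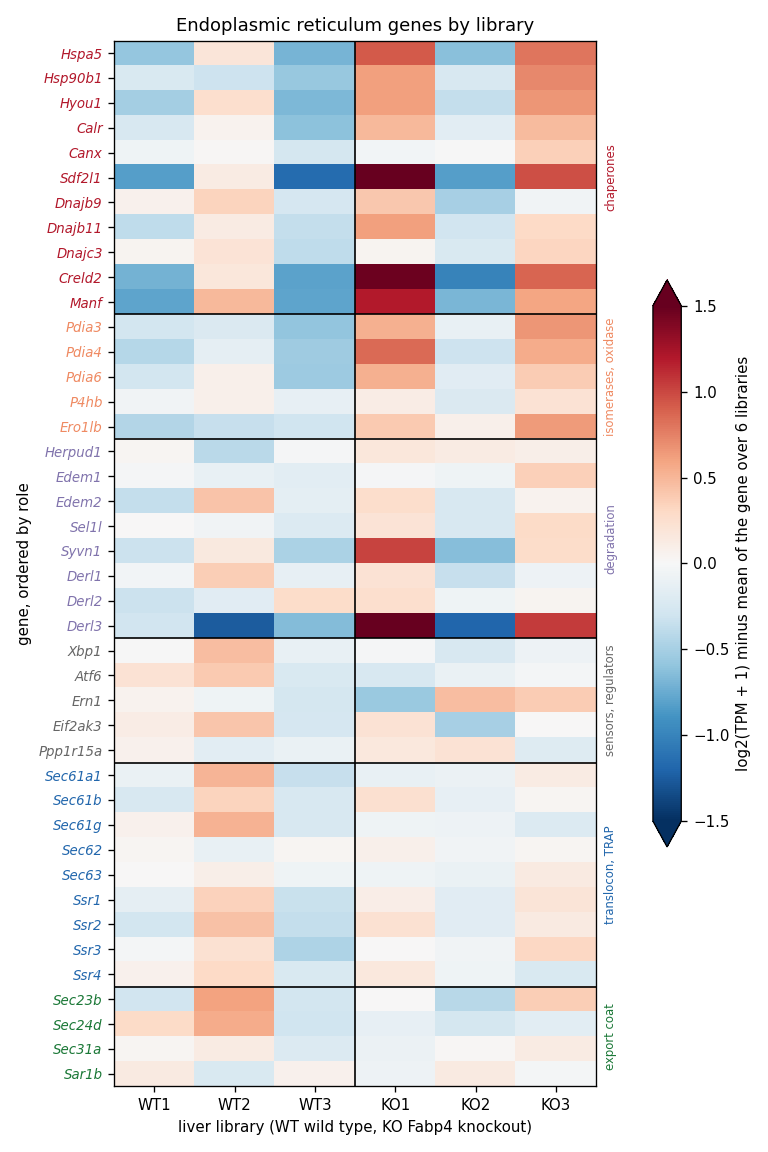
Each row is 1 of the 42 ER genes, grouped by role, and each column 1 liver library. Colour gives log2(TPM + 1) relative to the average of that gene across libraries, with the scale ending at 1.5 in either direction. Red cells for chaperones and isomerases lie mainly in knockout replicates 1 and 3, while those for the translocon lie mainly in wild type replicate 2.

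The 11 chaperone genes had their highest value in knockout replicate 1 (7 genes) or 3 (4 genes), and none exceeded all wild type libraries in knockout replicate 2. The TPM of Hspa5 (mm10 chromosome 2, 34772090 to 34776529, plus strand), which encodes BiP, the main ER chaperone of the Hsp70 family and the protein that holds the stress sensors inactive, was 768, 1307 and 707 in wild type replicates 1 to 3 and 2168, 741 and 2004 in knockout replicates 1 to 3. Knockout replicates 1 and 3 lay above every wild type library, while knockout replicate 2 lay between the wild type values. The log2 difference of the group means was 0.73 (SE 0.43, limma adjusted p 0.716). It was 1.22 when knockout replicate 2 was left out, and 0.45 or 0.51 when replicate 1 or 3 of the knockout was. Hsp90b1 (chromosome 10, 86690841 to 86705444, minus strand), the ER member of the Hsp90 family, was at 876, 833 and 696 TPM in wild type, against 1580, 870 and 1703 TPM in the knockout. Again the knockout replicate 2 value fell inside the wild type range. The log2 difference of Hsp90b1 was 0.73 (SE 0.26), with an adjusted p of 0.564 (limma).

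Genes of 3 small stress-induced ER proteins varied most within the chaperone group. Sdf2l1 (chromosome 16, 17130138 to 17132383, minus strand), a partner of ER DnaJ proteins, was at 14.3, 28.5 and 11.1 TPM across the wild type libraries and 87.5, 14.3 and 51.8 TPM across the knockout libraries. Creld2 (chromosome 15, 88819646 to 88826681, plus strand), a secreted ER stress protein, was at 43.6, 80.9 and 40.9 TPM in wild type, against 202, 35.4 and 133 TPM in the knockout. The neurotrophic factor and BiP cofactor gene Manf was at 45.8, 112 and 45.9 TPM across the wild type libraries and 185, 49.6 and 121 TPM across the knockout libraries. In all 3 genes wild type replicate 2 was the highest wild type library, knockout replicates 1 and 3 were higher still, and the groups overlapped through knockout replicate 2. The log2 differences were 1.24 (SE 0.62) for Sdf2l1, 0.90 (SE 0.59) for Creld2 and 0.73 (SE 0.51) for Manf, each within about 2 SE of 0.

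Hyou1, which encodes a nucleotide exchange factor of BiP, was at 50.1, 85.4 and 44.6 TPM in wild type, against 110, 55.7 and 114 TPM in the knockout. Calr, the lectin chaperone calreticulin that retains glycoproteins until they fold, was at 489, 599 and 378 TPM and at 810, 519 and 805 TPM. In both genes knockout replicates 1 and 3 exceeded every wild type library and replicate 2 did not, with log2 differences of 0.61 (SE 0.33) and 0.54 (SE 0.23). Canx, the membrane-bound lectin chaperone calnexin, differed less: it was at 199, 211 and 174 TPM across the wild type libraries and 203, 208 and 269 TPM across the knockout libraries (log2 0.21, SE 0.15). The DnaJ cochaperones did not share 1 order. Dnajb11 had a log2 difference of 0.41 (SE 0.25), Dnajc3, the PERK-inhibiting p58 protein, of 0.09 (SE 0.20), and Dnajb9 of -0.10 (SE 0.25). Dnajb9, a textbook Xbp1 target, was the 1 chaperone with a difference below 0, and its knockout values of 129, 68.8 and 94.4 TPM spanned its wild type values of 102, 123 and 81.6 TPM.

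**Figure D2:**
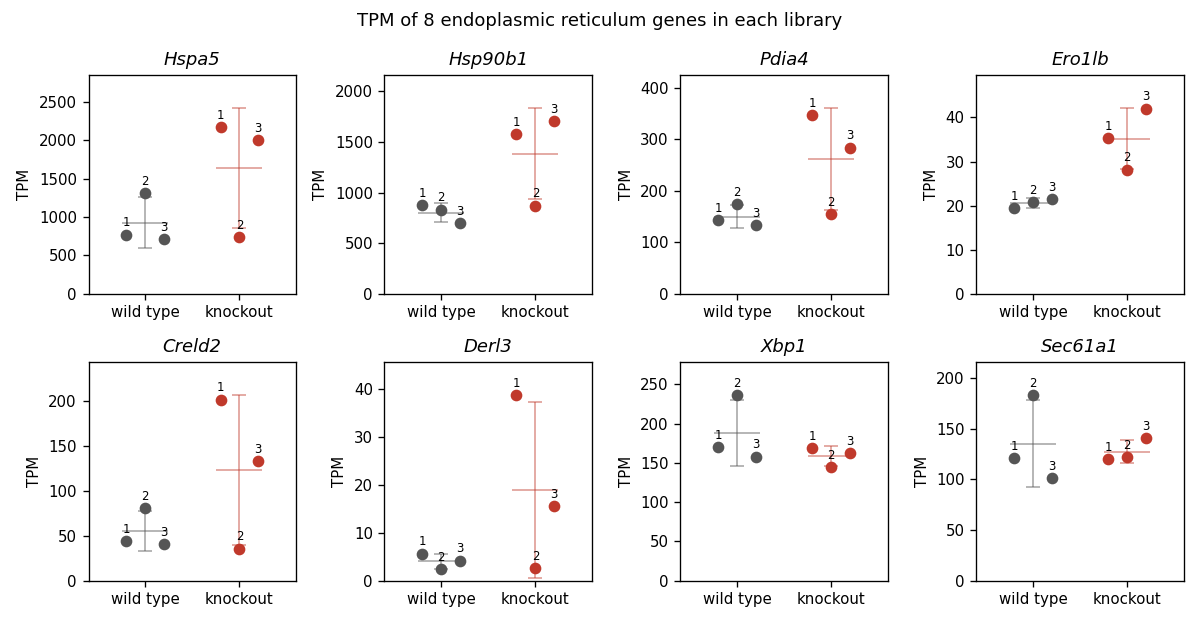
TPM of 8 ER genes (vertical axes, starting at 0) in the 3 wild type and 3 knockout libraries. Points are libraries labelled by replicate number, and the horizontal line and bar are the group mean and SD. For Hspa5, Hsp90b1, Pdia4, Creld2 and Derl3 knockout replicates 1 and 3 lie above all wild type points and replicate 2 does not, whereas all 3 knockout points of Ero1lb lie above the wild type points.

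The disulfide isomerases form, break and reshuffle the disulfide bonds of secreted proteins. Pdia3 (chromosome 2, 121413902 to 121438687, plus strand), which works with calnexin and calreticulin on glycoproteins, was at 273, 285 and 220 TPM in wild type, against 482, 307 and 525 TPM in the knockout. Its groups did not overlap, although knockout replicate 2 lay close to the highest wild type value. The log2 difference of Pdia3 was 0.72 (SE 0.22), with an adjusted p of 0.54 (limma), and the exact two-sided permutation p was 0.1, the smallest that 3 against 3 libraries allow. Pdia4 (chromosome 6, 47796088 to 47813512, minus strand) was at 142, 174 and 133 TPM across the wild type libraries and 347, 154 and 284 TPM across the knockout libraries, overlapping through knockout replicate 2 (log2 0.73, SE 0.29, limma adjusted p 0.582). Pdia6, which also attenuates IRE1, was at 156, 200 and 129 TPM in wild type, against 274, 168 and 247 TPM in the knockout (log2 0.50, SE 0.23).

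Ero1lb (chromosome 13, 12565808 to 12609533, plus strand), an oxidase that recharges the isomerases, had the smallest p of the 42 genes. It was at 19.4, 20.8 and 21.5 TPM across the wild type libraries and 35.3, 28.2 and 42.04 TPM across the knockout libraries. Unlike the chaperones, its 3 knockout values all stood clear of a narrow wild type range. The group means were 20.6 ± 1.06 TPM and 35.2 ± 6.93 TPM (SD, n = 3 libraries each), for a log2 difference of 0.73 (SE 0.16). Its unadjusted limma p was 0.00208, but the adjusted p was 0.522 and the exact permutation p 0.1. P4hb, the prototype isomerase PDI and the second subunit of the triglyceride transfer protein complex that loads lipid onto apolipoprotein B, was the most abundant isomerase gene at 1445, 1586 and 1378 TPM in wild type and 1621, 1296 and 1744 TPM in the knockout. The groups of P4hb overlapped widely (log2 0.07, SE 0.15).

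Degradation genes differed among themselves. Derl3 (chromosome 10, 75893072 to 75895941, plus strand), a stress-induced channel component of the Derlin family, was at 5.59, 2.38 and 4.12 TPM in wild type, against 38.7, 2.52 and 15.6 TPM in the knockout. Its knockout values spanned a 15.4-fold range, from within the wild type range in replicate 2 to far above it in replicate 1. The log2 difference of 1.45 (SE 0.78), the largest of the 42 genes, was therefore not distinguishable from 0 (limma adjusted p 0.698), and it was 0.65 without knockout replicate 1 and 2.40 without knockout replicate 2. Syvn1, the ubiquitin ligase HRD1 at the centre of the pathway, was also highest in knockout replicates 1 and 3, with 26.3, 36.6 and 23.4 TPM in wild type and 67.5, 21.0 and 40.3 TPM in the knockout (log2 0.44, SE 0.38).

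Herpud1 (chromosome 8, 94386138 to 94395366, plus strand), a stress-induced scaffold of the HRD1 complex, had a narrow knockout range. It was at 303, 224 and 294 TPM across the wild type libraries and 334, 323 and 316 TPM across the knockout libraries, so that the 3 knockout libraries lay close together and just above the wild type libraries. The log2 difference was 0.26 (SE 0.15, limma adjusted p 0.705), with an exact permutation p of 0.1. Sel1l, the adaptor of HRD1 (log2 0.17, SE 0.16), and the mannose-trimming or mannose-reading genes Edem1 (0.19, SE 0.14) and Edem2 (0.05, SE 0.23) overlapped between groups. So did the other Derlin genes, Derl1 (-0.14, SE 0.19) and Derl2 (0.15, SE 0.18).

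**Figure D3:**
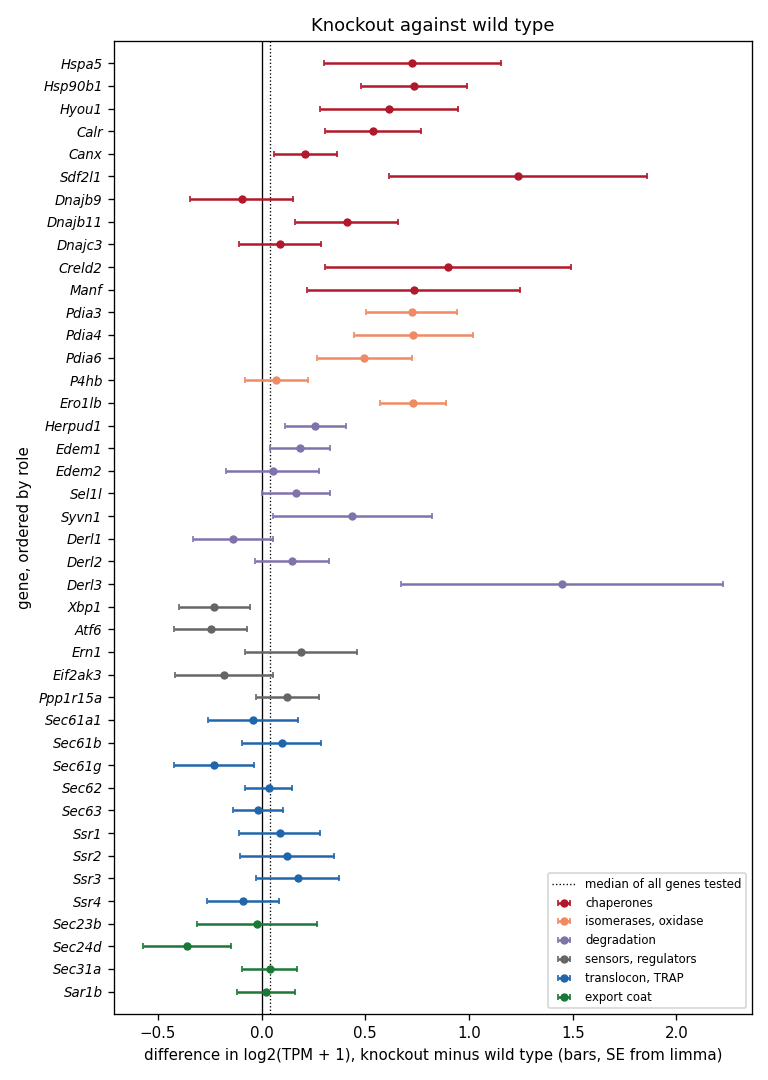
Difference in log2(TPM + 1), knockout minus wild type, for each of the 42 ER genes, with bars of 1 SE from limma. The dotted line is the median of all genes tested, 0.04. The largest differences, in Derl3, Sdf2l1 and Creld2, have the widest bars, and those of the translocon and export coat genes lie near 0.

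The sensors and regulators of the unfolded protein response did not follow the chaperones. Xbp1 (chromosome 11, 5520641 to 5525993, plus strand), whose RNA is spliced by IRE1, was at 170, 236 and 158 TPM in wild type, against 168, 144 and 162 TPM in the knockout. Its highest value was in wild type replicate 2, and knockout replicate 1, with the most Hspa5, was within the wild type range (log2 -0.23, SE 0.17). Atf6 was at 28.8, 32.7 and 20.9 TPM across the wild type libraries and 20.8, 23.0 and 24.2 TPM across the knockout libraries (log2 -0.25, SE 0.18). Ern1 was at 12.1, 11.1 and 9.54 TPM in wild type, against 7.61, 16.5 and 15.5 TPM in the knockout, lowest of all in knockout replicate 1 (log2 0.19, SE 0.27). Eif2ak3 (log2 -0.18, SE 0.24) and Ppp1r15a, the phosphatase subunit that ends the translation block set by PERK (log2 0.12, SE 0.15), stayed between 4.38 and 9.11 TPM in every library. The limma adjusted p of the 5 genes lay between 0.769 and 0.893.

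Of the 9 translocon genes, 6 (66.7%) had their highest value in wild type replicate 2, against 19.9% of all genes. So did 3 of the 5 sensors and regulators, 2 of the 4 export genes and 34 of 73 further genes of these pathways (46.6%). Among the other roles it was 2 of the 8 degradation genes, 0 of the 11 chaperones and 0 of the 5 isomerases and oxidases. Sec61a1, the pore of the channel, was at 121, 183 and 101 TPM across the wild type libraries and 120, 122 and 141 TPM across the knockout libraries. Its knockout values stood inside the wild type range (log2 -0.04, SE 0.22). The other channel subunits Sec61b (log2 0.10, SE 0.19) and Sec61g (-0.23, SE 0.19), and the partner genes Sec62 (0.03, SE 0.11) and Sec63 (-0.02, SE 0.12), which serve post-translational import and recruit BiP, had differences within about 1 SE of 0 either way. Those of the translocon-associated TRAP complex were likewise small, from -0.09 (SE 0.17) for Ssr4 to 0.17 (SE 0.20) for Ssr3, with Ssr1 at 0.09 (SE 0.20) and Ssr2 at 0.12 (SE 0.23). Ssr3 was at 235, 283 and 174 TPM in wild type, against 241, 232 and 299 TPM in the knockout.

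The COPII coat genes, which carry folded cargo out of the ER, were the group with the lowest spread among knockout libraries. Sar1b, the GTPase that starts coat assembly and is needed for lipoprotein export, was at 362, 280 and 346 TPM across the wild type libraries and 314, 361 and 324 TPM across the knockout libraries (log2 0.02, SE 0.14). Sec24d, a cargo adaptor, was at 77.9, 94.1 and 51.6 TPM in wild type, against 58.6, 53.0 and 57.2 TPM in the knockout, inside the wild type range (log2 -0.36, SE 0.21, limma adjusted p 0.718). Its difference was the lowest of the 42 genes. The inner coat gene Sec23b (log2 -0.02, SE 0.29) and the outer coat gene Sec31a (0.04, SE 0.13) overlapped between groups.

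Folding genes spread more widely over the knockout libraries than translocon and export genes did. The median range over the 3 knockout libraries was 0.97 on the log2(TPM + 1) scale for chaperones, 0.71 for isomerases, 0.37 for translocon genes and 0.21 for export genes, against 0.35 over all genes tested. Over the 3 wild type libraries the same medians were 0.66, 0.37, 0.68 and 0.61, against 0.38. A knockout range above 1 was found in 9 of the 42 genes (21.4%), Hspa5, Hyou1, Sdf2l1, Creld2, Manf, Pdia4, Syvn1, Derl3 and Ern1, against 5.76% of all genes. In 8 of these 9 the highest knockout value was in replicate 1 or 3, and the exception was Ern1. Knockout replicate 2 was the lowest knockout library for 32 of the 42 genes (76.2%), against 39.6% of all genes. The wild type libraries were uneven too. Wild type replicate 2 was the highest of them for 31 of the 42 genes (73.8%), against 35.9% of all genes, and for 10 of the 11 chaperones. Of the 11 chaperones, 9 were above all wild type libraries in knockout replicate 1, 10 in knockout replicate 3 and 0 in knockout replicate 2, where the shares of all genes were 32.7%, 31.9% and 24.6%. These counts describe the libraries and were not tested.

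**Figure D4:**
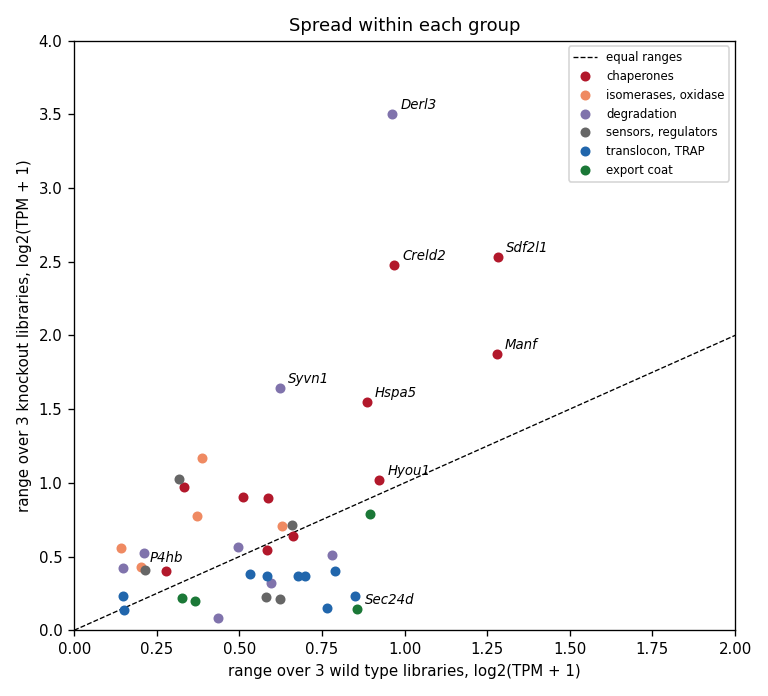
Range (highest minus lowest log2(TPM + 1)) over the 3 wild type libraries on the horizontal axis and over the 3 knockout libraries on the vertical axis, 1 point per ER gene, coloured by role. The axes have different scales, and the dashed line marks equal ranges. Of the chaperone genes 9 of 11 lie above the line, with all isomerase and some degradation genes, up to 3.50 in the knockout for Derl3, and most translocon and all export genes lie below it.

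Summed over genes, the 11 chaperones reached 2794, 3623 and 2343 TPM in wild type replicates 1 to 3 and 5721, 2742 and 5560 TPM in the knockout. The 9 translocon genes summed to 1010, 1300 and 863 TPM and to 1102, 985 and 1106 TPM. The chaperone sums of the groups overlapped through knockout replicate 2, and the translocon sums of the knockout all lay inside the wild type range.

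A further 74 genes of the same pathways were listed, of which 73 were abundant enough to test (Kdelr3 was not). None passed (limma; 2 had an unadjusted p under 0.05, both higher, against 5.12% of all genes). Of the 73, 45 were higher (61.6%, against 57.4% of all genes tested) and 28 lower. Their median log2 difference was 0.03, against 0.04 over all genes tested. In 3 of the 73 every knockout value lay above wild type and in 3 below, against 8.94% and 4.38% of all genes. The 4 with the smallest p were Mogs, Txndc5, Sec16b and Sec16a. Mogs, the glucosidase that starts trimming of N-glycans, was at 26.3, 29.0 and 27.8 TPM across the wild type libraries and 35.8, 37.4 and 34.9 TPM across the knockout libraries (log2 0.37, SE 0.11, limma adjusted p 0.54). Txndc5, an isomerase, was at 149, 159 and 112 TPM in wild type, against 180, 165 and 212 TPM in the knockout (log2 0.41, SE 0.17, limma adjusted p 0.599). Both genes were higher in every knockout library, replicate 2 included. The scaffold genes of ER exit sites were on the other side, Sec16b at 43.2, 43.3 and 31.5 TPM against 31.2, 30.4 and 30.2 TPM (log2 -0.34, SE 0.15) and Sec16a at log2 -0.34 (SE 0.15), with limma adjusted p of 0.646 and 0.653.

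Markers of other cells differed between the same libraries. Plasma cells are rich in ER, and of their 8 listed markers 5 were tested. Their summed level was 249, 264 and 232 TPM in wild type and 450, 224 and 312 TPM in the knockout, with Ighm at 74.2 TPM in knockout replicate 1 against 4.17 to 11.1 TPM elsewhere. Igkc, an immunoglobulin constant region gene, was at 28.3, 40.5 and 25.3 TPM in wild type, against 169, 32.2 and 46.5 TPM in the knockout. The more restricted plasma cell genes Mzb1, Pou2af1 and Tnfrsf17 stayed under 1 TPM in every library, and Tnfrsf17 had no value in 4 of the 6. Sdc1, which hepatocytes also express, was at 196, 180 and 182 TPM in wild type, against 158, 166 and 227 TPM in the knockout. It was most of the sum in every library but knockout replicate 1, where Igkc was larger and Sdc1 was at its lowest. Jchain, the joining chain of secreted immunoglobulins, was at 11.0 TPM in knockout replicate 1 and at 1.88 to 3.23 TPM in the others, lowest in knockout replicate 3. Fkbp11, also counted among the 74 further pathway genes, was at 17.4, 33.8 and 17.6 TPM in wild type. In the knockout Fkbp11 was at 36.5, 14.5 and 24.7 TPM. The 7 macrophage markers summed to 203, 91.5 and 108 TPM in wild type and to 165, 218 and 401 TPM in the knockout, highest in knockout replicate 3. The 7 endothelial markers summed to 118, 93.7 and 92.5 TPM and to 137, 128 and 153 TPM, and the 7 stellate cell markers to 296, 254 and 239 TPM and to 359, 281 and 291 TPM. Most of the stellate cell sum was Dcn in every library, so it says little of the other stellate cell markers. The 6 neutrophil markers summed to 39.3, 48.9 and 19.9 TPM and to 19.9, 18.4 and 14.3 TPM. Of the 8 exocrine pancreas genes, another ER-rich tissue, 6 had no value in any of the 3 knockout libraries (Cela3b, Cpa1, Prss2, Pnlip, Cel and Ctrb1). These 6 had no value in wild type replicate 1 either, reached at most 1.67 TPM in the other wild type libraries, and were too low to test. The list summed to 9.44 to 14.4 TPM in the knockout and to 11.5 to 19.6 TPM in wild type, nearly all of it Cela1. The part of the immune and stromal cells in the ER results was not tested, and in bulk tissue more cells of a type and more RNA per cell cannot be told apart.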

How the data were processed

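Liver RNA was sequenced on a HiSeq instrument, per the labels' protocols. Per the submitters' processing notes, FastQC and Trimmomatic were used with build mm10; the aligner, counting, annotation, strandedness and versions, each not given in the sources used here, are unknown. Per the file headers the columns hold TPM, yet the authors deposited log2 values, as seen from entries below 0 and antilogarithms that sum to 983800 to 1018118 per library. Equal medians (1.07) and maxima (16.59) in all 6 columns are what quantile normalization leaves, so a shift of all genes cannot be seen. Blanks were taken as 0 and values returned to TPM.

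Genes with a mean of at least 0.5 TPM were compared on log2(TPM + 1) by limma 3.58.1 under R 4.3.3, whose model held the group alone and moderated variances along a trend (4 residual and 3.65 prior degrees of freedom), with Benjamini-Hochberg adjustment over the 14155 genes and a threshold of 0.05. Differences understate the change of low genes. A range is the highest minus the lowest log2(TPM + 1). Named were all 42 ER genes, and the 4 smallest p of 74 other pathway genes. Of the 74, 1 (Hm13) was matched by its gene number through the RefSeq table of GRCm38.p6. The genes and lists were chosen with earlier results of these data known. On simulated data for this comparison (14155 genes), limma recovered 54.9% of genes changed by 1 on the log2 scale and 90.5% of those changed by 2. The simulation drew noise independently for each gene and changed 200 of all genes per set, so it gives no recovery for the 42 ER genes alone. Alternatives were another pseudocount, filter, scaling and variance model, a replicate block and leaving out libraries. No sequence is shown.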

Additional observations from a re-analysis of the deposited data

How the results depend on the processing

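None of the 42 ER genes passed the limma threshold under any of the 14 alternatives, and the smallest adjusted p was 0.36, for Ero1lb and Sec24d without wild type replicate 3 (range over alternatives 0.36 to 0.993 and 0.36 to 0.997). Their median difference was 0.14 in the main fit and ranged from 0.06 to 0.24 over fits that left out 1 library. It was 0.23 in the fit without wild type replicate 2 and knockout replicate 1. The SD between libraries was 0.22. Leaving out 1 of 3 libraries can hardly move a group mean by more than that SD, so the SD cannot show that the median is stable. Over all genes 0 passed unfiltered. With the replicate number as a replicate block 0 passed too. From 0 to 2 genes passed when 1 library was left out. Same-numbered libraries did not deviate together (correlations -0.26, -0.27 and -0.05), so the numbers were not taken as pairs. Of the 42 differences, 25 kept their sign throughout. Leaving out 1 library gave ranges that cross 0 for Dnajb9 (-0.321 to 0.129), Dnajc3 (-0.078 to 0.227), P4hb (-0.0171 to 0.197), Edem2 (-0.111 to 0.279), Derl1 (-0.282 to 0.0138), Eif2ak3 (-0.351 to 0.0221), Sec61a1 (-0.227 to 0.199), Sec61b (-0.00142 to 0.29), Sec62 (-0.0149 to 0.0717), Sec63 (-0.0894 to 0.027), Ssr1 (-0.058 to 0.28), Ssr2 (-0.0219 to 0.373), Ssr3 (-0.0151 to 0.334), Ssr4 (-0.229 to 0.0371), Sec23b (-0.216 to 0.273), Sec31a (-0.0551 to 0.108) and Sar1b (-0.0892 to 0.0944). With wild type replicate 2 and knockout replicate 1 both left out, a setting chosen after seeing the data, the sign changed for Sec61a1 (0.242), Sec62 (-0.0463), Sec63 (0.044), Sec23b (0.264) and Sar1b (-0.0481). Median scaling gave -0.00152 for Sec62 and -0.0134 for Sar1b, and quantile normalization -9.58e-05 for Sar1b. The cause of the sign changes was not tested. TPM gives no depth, so precision rests on 3 libraries per group.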

Other observations

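Lists of heat shock and ATF4 target genes, chosen after the data were seen, were read beside the ER genes. Heat shock genes were higher for 9 of 10, against 57.4% of all genes, the exception being Hspa1b. The 10 include the mitochondrial chaperones Hspd1 (log2 0.11, SE 0.16) and Hspe1 (0.16, SE 0.13), and the other 8 are cytosolic. Hsp90aa1, the inducible cytosolic Hsp90, was at 481, 303 and 336 TPM across the wild type libraries and 560, 582 and 653 TPM across the knockout libraries (log2 0.70, SE 0.19). Hspa8, the constitutive Hsp70, was at 2441, 2041 and 2053 TPM and at 2993, 2673 and 3196 TPM (log2 0.44, SE 0.14). Hsp90ab1 also lay higher in every knockout library (log2 0.50, SE 0.16). None of the 10 passed over all genes tested (limma), and 3, those just named, had an unadjusted p under 0.05, where 5.12% of all genes were higher. In these 3 every knockout value lay above wild type, as in 8.94% of all genes. The stress-inducible Hspa1b measured 52.8, 18.4 and 46.3 TPM in wild type and 75.3, 19.4 and 9.16 TPM in the knockout.

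Of 12 ATF4 targets, which the PERK branch can switch on, 3 were higher and 9 lower, where 42.6% of all genes were lower. Wild type replicate 2 was the highest of the 6 libraries for 6 of the 12 (50%), against 19.9% of all genes. None passed (limma), and 2, Asns and Chac1, were lower at an unadjusted p under 0.05, against 2.91% of all genes. Asns, asparagine synthetase, was at 5.50, 15.8 and 6.12 TPM in wild type, against 2.67, 1.20 and 2.14 TPM in the knockout (log2 -1.65, SE 0.37). Its 3 knockout values lay below all wild type values, also in knockout replicates 1 and 3, where Hspa5 was highest. Atf3, a stress-induced transcription factor, lay on the other side, at 2.78, 0.698 and 2.76 TPM in wild type, against 3.11, 2.80 and 6.54 TPM in the knockout (log2 0.76, SE 0.38). Every knockout value lay below in 4.38% of all genes and above in 8.94%. Trib3 was at 6.19, 14.3 and 8.55 TPM and at 7.56, 8.73 and 6.90 TPM (log2 -0.23, SE 0.26). Ddit3, which encodes the stress factor CHOP, was at 18.1 TPM in knockout replicate 1 and at 4.22 to 6.06 TPM in the other 5 libraries. Neither Ddit3 (log2 0.59, SE 0.41) nor Ppp1r15a (log2 0.12, SE 0.15) was among the 12 listed, and both differences were above 0.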
